A study of Mus musculus with 6 samples.

Results

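The cytosolic ribosomal protein genes encode the proteins of the ribosome that translates cytoplasmic mRNA. They were taken as the rows of the deposited tables that are annotated as protein-coding and carry a ribosomal protein symbol, meaning Rpl or Rps with a number and at most a short suffix, or Rplp0, Rplp1, Rplp2 or Rpsa. The rule used no measured value and found 83 genes of 55450, of which 51 belong to the large subunit and 32 to the small subunit. RNA-seq had been made from 6 subcutaneous tumours grown in the flank of C57BL/6 mice from MTE-Ras cells, a line of mouse tracheal epithelial cells whose name marks a Ras oncogene. One group was 3 tumours treated with PV-10, a solution of the dye rose bengal made for injection into tumours, and the other was 3 tumours treated with phosphate-buffered saline (PBS). The labels give no dose, no time between treatment and collection, and no age of the mice, so the comparison is of treated with vehicle-treated tumours at unstated times. The libraries were made from total RNA of whole tumours, so that host cells and tumour cells contribute together.

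A ribosome holds a single copy of nearly every ribosomal protein, and cells make these proteins in matched amounts. Their mRNAs are among the most abundant in growing cells and start with a short run of pyrimidines at the cap, the terminal oligopyrimidine or TOP motif, through which the kinase mTOR and the RNA-binding protein Larp1 control translation and stability. Their promoters often have no TATA box and often bind factors of the ETS family, and many of their introns hold small nucleolar RNAs.

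The start regions of 8 genes are shown because they are those, among the 63 of 83 genes matched by symbol to RefSeq promoters of GRCm38.p6, with the largest and the smallest changes described below. Each window runs from 30 bases before the annotated start to 30 bases from it, and capitals mark its longest unbroken run of C and T. Rps27l, Rps24, Rps12 and Rpl35 had the largest log2 changes, and Rps2, Rpl4, Rpl28 and Rpsa the lowest. The near-silent Rpl39l, whose log2 change of 2.77 ± 1.50 (SE) was also high, and Rpl3l were left out of this choice and of the groups of 30 compared below.
Rps27l: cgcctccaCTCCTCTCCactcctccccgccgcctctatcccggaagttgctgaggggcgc
Rps24: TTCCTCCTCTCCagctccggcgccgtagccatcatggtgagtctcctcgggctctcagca
Rps12: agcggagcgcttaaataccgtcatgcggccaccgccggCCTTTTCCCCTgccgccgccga
Rpl35: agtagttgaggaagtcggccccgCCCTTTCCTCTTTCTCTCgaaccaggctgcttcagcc
Rps2: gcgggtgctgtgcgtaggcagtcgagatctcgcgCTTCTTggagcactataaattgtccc
Rpl4: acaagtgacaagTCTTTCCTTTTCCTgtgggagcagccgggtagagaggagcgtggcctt
Rpl28: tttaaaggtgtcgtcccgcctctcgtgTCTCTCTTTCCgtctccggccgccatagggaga
Rpsa: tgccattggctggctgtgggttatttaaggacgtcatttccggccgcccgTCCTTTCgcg
These windows lie at chr9:66946056-66946115, chr14:24490723-24490782, chr10:23787180-23787239 (minus strand), chr2:39005102-39005161 (minus strand), chr17:24720033-24720092, chr9:64173357-64173416, chr7:4792935-4792994 and chr9:120127736-120127795, all on the plus strand except the 2 named. The starts are those of RefSeq and can differ from the Gencode gene bounds given further on. The longest run was 9, 12, 11 and 18 bases in the first 4 genes, and 6, 14, 11 and 7 bases in the last 4, so that runs of similar length stood in genes at both ends. Over all 63 genes the median longest run was 9 bases, beside 5 over 32851 promoter entries, and 54.0% of the genes had a run of at least 8, beside 22.9% of all entries. The 30 genes with the larger and the 30 with the smaller log2 changes had medians of 8.5 and 9 bases. In the 300 bases from 250 before to 50 after the start, GGAAGT, the core bound by ETS factors, was found on either strand in 46.0% of the genes and in 23.8% of all entries. TATAAA was found in 9.52% and 13.6%, and the E-box CACGTG in 7.94% and 7.15%. GGAAGT was present in 53.3% of the genes with the larger and in 43.3% of those with the smaller changes. These letters are descriptions of annotated starts and not mapped factor sites.

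Total counts were 60082066, 36730318 and 94203331 in PV-10 tumours 1, 2 and 3, and 87386266 to 98717951 in PBS tumours. At these depths 3 counts, called the floor here, corresponded to 0.0304 to 0.0817 CPM (counts scaled to a library of fixed size) by total count. No value was replaced by this floor, and 0 counts are printed as 0. CPM values of single genes below are scaled by the trimmed mean of M values (TMM). The shallowest library still held 3464998 counts of ribosomal protein genes, so that nearly all of these genes were measured far above the floor. The p-values below rest on 3 tumours a group, which were taken as independent of each other.

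Ribosomal protein transcripts took a larger share of the reads in every PV-10 tumour than in any PBS tumour. Their summed count was 10.2%, 9.43% and 5.65% of all counts in PV-10 tumours 1, 2 and 3, against 3.71%, 3.12% and 2.98% in PBS tumours 1, 2 and 3. The means were 8.41% ± 2.42 in PV-10 tumours and 3.27% ± 0.390 in PBS tumours (SD, n = 3 each), a ratio of 2.57. PV-10 tumours 1 and 2 lay close together and PV-10 tumour 3 lay between them and the PBS tumours. A bulk library cannot tell apart fewer cells of a type from less RNA per cell, nor a rise of these transcripts from a loss of others, since every share is relative to the rest of the library.

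The share also differed per length, by a smaller factor. In TPM, a transcript share scaled to a fixed total that divides each gene's reads by its effective length, the 83 genes summed to 8.55%, 8.29% and 7.01% of the total in PV-10 tumours, against 5.07%, 5.49% and 4.56% in PBS tumours, a ratio of 1.58. The groups did not overlap on this scale either. Protein-coding genes as a whole took 30.5%, 31.8% and 38.1% of TPM in PV-10 tumours, against 42.2%, 48.1% and 42.4% in PBS tumours. Within protein-coding TPM the ribosomal protein genes held 28.1%, 26.1% and 18.4% in PV-10 tumours, against 12.02%, 11.41% and 10.75% in PBS tumours, a ratio of 2.12. The size of the difference thus depended on the unit and the denominator, from 1.58 to 3.12 times, the highest being the ratio of shares of protein-coding counts, while the order of the groups did not.

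**Figure D1:**
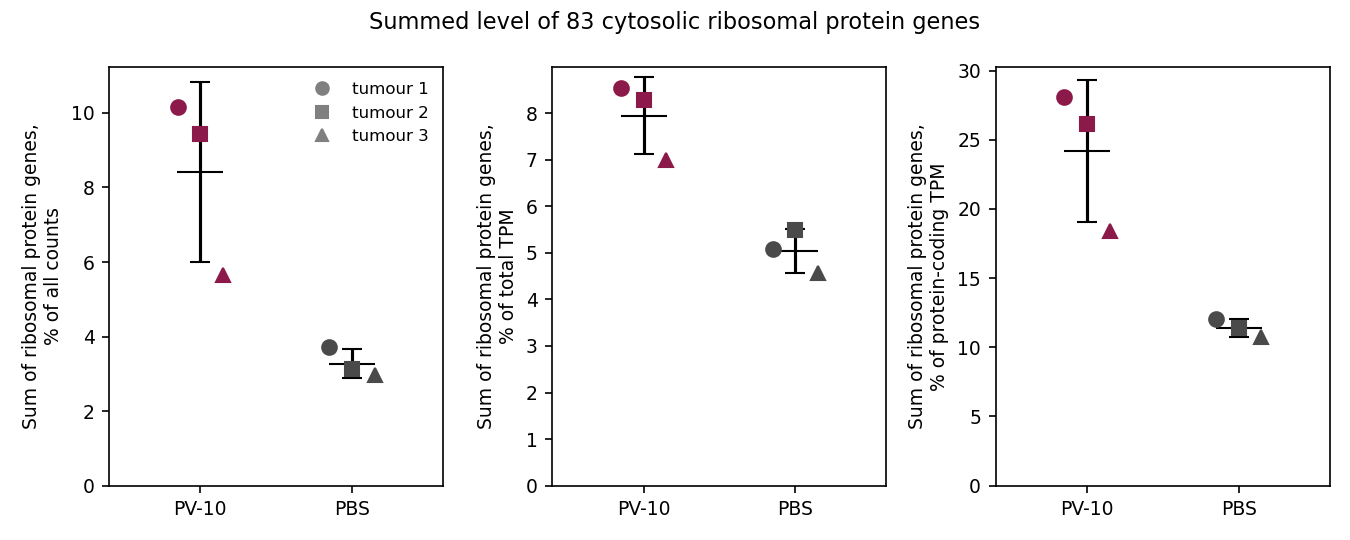
Summed level of the 83 ribosomal protein genes in each tumour, as percent of all counts (left), of total TPM (middle) and of protein-coding TPM (right), with PV-10 tumours left of PBS tumours. Symbols are tumours 1 to 3, horizontal bars are group means and whiskers are SD (n = 3); every PV-10 tumour lies above every PBS tumour in all 3 panels, and PV-10 tumour 3 is the lowest of its group.

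Gene by gene, 50 of 82 tested ribosomal protein genes rose in PV-10 tumours and 0 fell, at an adjusted p under 0.05 in edgeR's quasi-likelihood test. Across all 22056 genes tested, 3.17% were called higher and 1.92% lower. The remaining gene, Rpl10l, did not pass the filter on low counts. No ribosomal protein gene was lower at an unadjusted p under 0.05 either (0 of 82, against 68 higher). Of all 22056 genes, 6627 were under that cut in either direction. DESeq2 called 74 higher and 0 lower, beside 15.7% and 10.2% of all genes. The median log2 change of the 82 was 1.35 (interquartile range 0.93 to 1.89), against 0.30 for all genes tested and 0.06 for protein-coding genes. In all, 80 of the 82 had a positive log2 change. The lowest adjusted p was 0.0443 and was shared by many genes, because the Benjamini-Hochberg adjustment gives ranked genes a common value, and the highest among called members was 0.0493 (Rpl6 and Rps23). With library size alone in place of TMM scaling, 52 were called higher and 0 lower, beside 4.44% and 6.62% of all genes. Over all genes this scaling turned the split to 980 higher and 1461 lower, against 699 higher and 423 lower in the main test.

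All 3 PV-10 tumours were above all 3 PBS tumours in 74 of the 82 genes, and in 0 genes were they all below. This separation was found upward in 22% and downward in 16.8% of all genes tested. Among the 8 genes whose groups overlapped were Rps2, Rpl4, Rpl28, Rps26, Rpl23a and the near-silent Rpl3l and Rpl39l. Relative to the PBS mean, the median gene stood at a log2 difference of 1.49, 1.48 and 0.95 in PV-10 tumours 1, 2 and 3, and at 0.20, -0.07 and -0.13 in PBS tumours 1, 2 and 3. PV-10 tumour 3 was the lowest of its group in 62 of the 82 genes.

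The calls depended on single tumours. Without PV-10 tumour 1 or 2, or without any one PBS tumour, edgeR called 0 ribosomal protein genes, with 57 to 66 higher at an unadjusted p under 0.05. In these 5 fits it called 1 to 5 genes of all, with 4614 to 6851 of all genes, in either direction, at an unadjusted p under 0.05. Without PV-10 tumour 3 it called 69 higher and 1, Rps2, lower, beside 25% and 16.4% of all genes. The median log2 changes were 1.16 to 1.46 for the large subunit and 1.27 to 1.55 for the small subunit over the 6 omissions. The median over all genes moved more, from 0.26 to 0.89, so that the members stood less far above it in some fits. Without PBS tumour 2, for example, the medians were 1.24 for the large subunit, 1.28 for the small subunit and 0.75 for all genes.

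**Figure D2:**
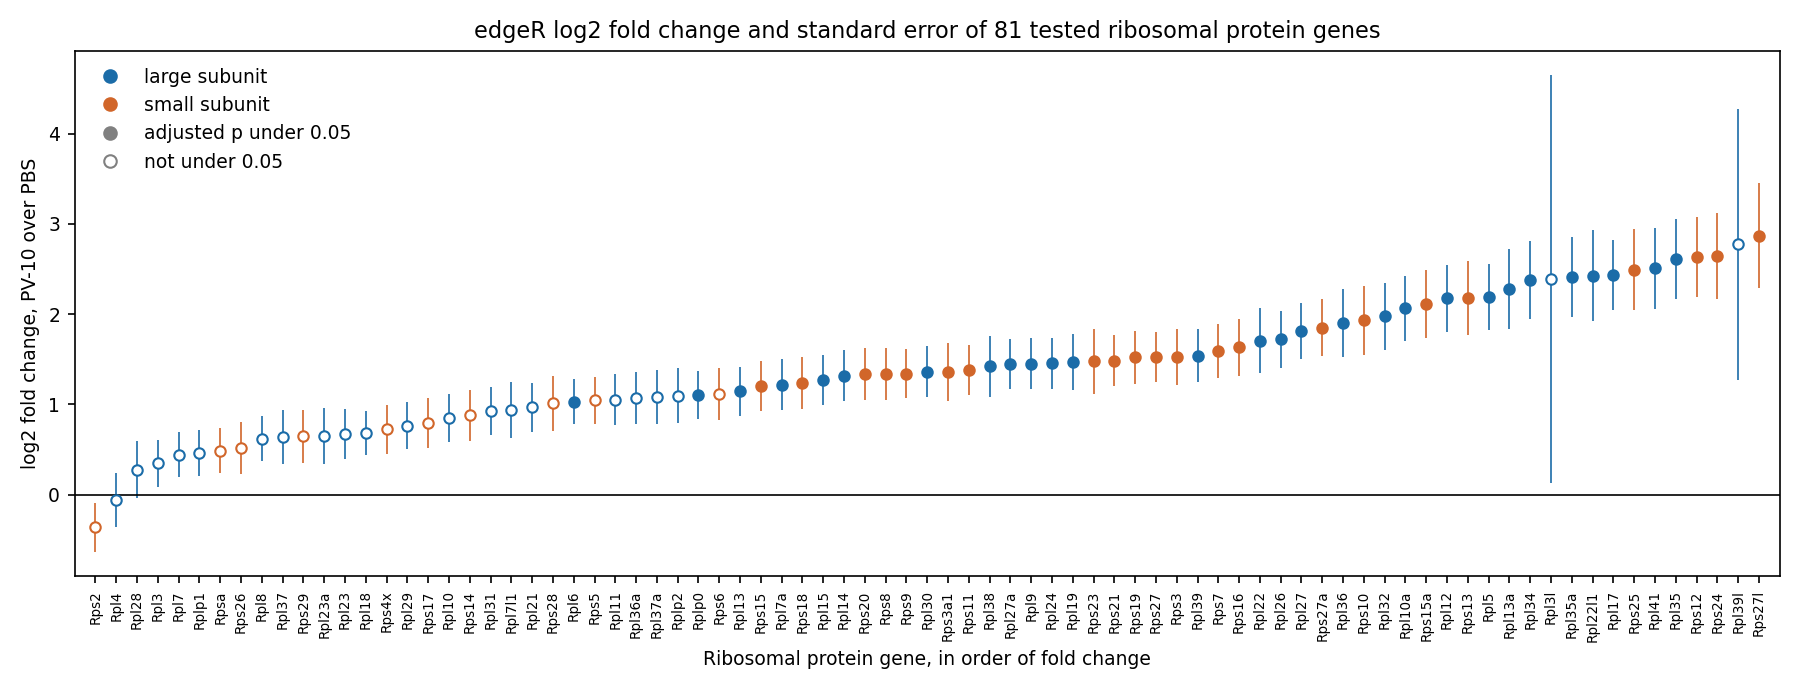
edgeR log2 fold change, PV-10 over PBS, of 81 of the 82 tested ribosomal protein genes in rising order, with the standard error as a vertical line. Blue is the large and orange the small subunit, and filled circles have an adjusted p under 0.05; values run from -0.36 (Rps2) to 2.87 (Rps27l), with wide errors for the near-silent Rpl3l and Rpl39l.

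Rps24, a small-subunit protein, was the most abundant member per length in every tumour and also among those that differed most. Its level was 9330.4, 7483 and 4134 TPM in PV-10 tumours 1, 2 and 3, against 2464, 2588 and 1795 TPM in PBS tumours 1, 2 and 3. It rose, with every PV-10 tumour above every PBS tumour (log2 change in counts 2.64 ± 0.47 (SE), adjusted p = 0.0443). It alone made up 10.3%, 8.52% and 5.03% of all ribosomal protein counts in PV-10 tumours 1, 2 and 3, against 4.17%, 3.68% and 3.09% in PBS tumours. The gene lies at chr14:24487125-24496959 (mm10).

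Rps12, which belongs to the head of the small subunit, had 5273, 4591 and 2358 TPM in PV-10 tumours 1, 2 and 3, against 1140.4, 1317 and 1191 TPM in PBS tumours 1, 2 and 3. The groups were far apart and PV-10 tumour 3 again stood between the rest of its group and the PBS tumours (log2 change in counts 2.64 ± 0.44 (SE), adjusted p = 0.0443). Rps25, a small-subunit protein used in initiation on some viral RNAs, rose likewise (log2 change in counts 2.49 ± 0.45 (SE), adjusted p = 0.0443), with 1564 ± 600.0 TPM in the PV-10 group and 506 ± 34.0 TPM in the PBS group (SD, n = 3 each). Among large-subunit genes, Rpl35, whose protein sits near the exit of the peptide tunnel, had 2265, 1555 and 954 TPM in PV-10 tumours 1, 2 and 3, against 429.9, 457 and 431 TPM in PBS tumours 1, 2 and 3. It rose with groups fully apart (log2 change in counts 2.61 ± 0.45 (SE), adjusted p = 0.0443). Rpl41, which encodes the smallest ribosomal protein, had 2874, 2837 and 1201 TPM in PV-10 tumours 1, 2 and 3, against 741, 803 and 750.3 TPM in PBS tumours 1, 2 and 3 (log2 change in counts 2.51 ± 0.45 (SE), adjusted p = 0.0443), and its groups were also fully apart.

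**Figure D3:**
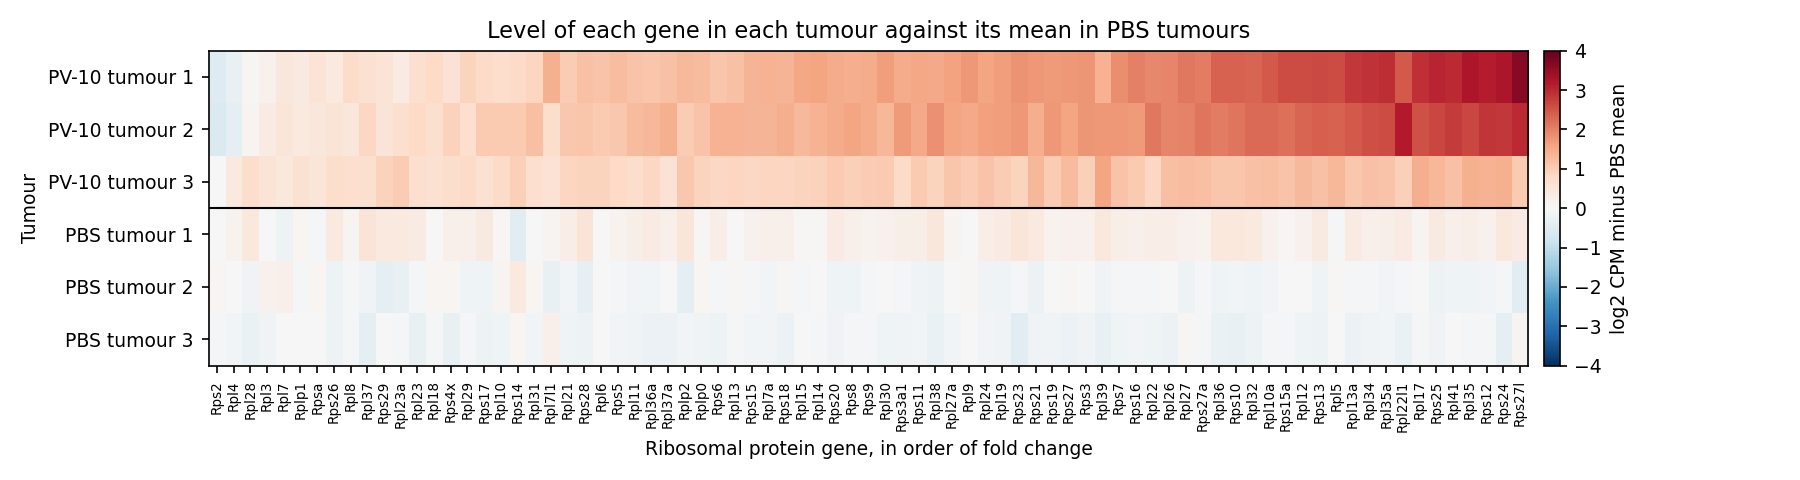
log2 difference of each gene in each tumour from its PBS mean, from CPM, for 79 of the 80 genes with a mean of at least 10 TPM, in order of fold change from left to right, with PV-10 tumours in the rows above PBS tumours. Red is higher and blue lower; PV-10 tumours 1 and 2 darken towards the right, PV-10 tumour 3 is paler and more even across genes, and the PBS rows stay near 0.

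At the other end, Rps2 and Rpl4 had the lowest log2 changes. Rps2, a protein of the mRNA entry channel (located at chr17:24718116-24721929), had 294, 284 and 417 CPM in PV-10 tumours 1, 2 and 3, against 428, 449 and 399.9 CPM in PBS tumours 1, 2 and 3. PV-10 tumours 1 and 2 lay below all PBS tumours and PV-10 tumour 3 lay among them (log2 change in counts -0.36 ± 0.27 (SE), adjusted p = 0.397). Per length Rps2 was lower in every PV-10 tumour, and limma on log2(TPM + 1) gave a log2 difference of -1.07 with an adjusted p of 0.046. Rpl4, which lines the peptide exit tunnel, had 776, 733 and 1259 CPM in PV-10 tumours 1, 2 and 3, against 1047, 943 and 888 CPM in PBS tumours 1, 2 and 3, and the groups overlapped (log2 change in counts -0.06 ± 0.30 (SE), adjusted p = 0.916). Its sign was not settled, since DESeq2 gave a log2 change of 0.03. In both genes PV-10 tumour 3 was the highest of its group, unlike most of the family.

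The abundant genes Rpl28, Rpl19, Rpl36 and Rps28 had log2 changes from 0.28 to 1.90, within a family range of -0.36 to 2.87. Rpl36 rose (log2 change in counts 1.90 ± 0.38 (SE), adjusted p = 0.0443), with 2480.2 ± 573 TPM in the PV-10 group and 1277 ± 202 TPM in the PBS group (SD, n = 3 each). Rpl19 also rose (log2 change in counts 1.47 ± 0.31 (SE), adjusted p = 0.0443), with 2074 ± 150.4 TPM in the PV-10 group and 1346 ± 99.6 TPM in the PBS group. Rps28 was at 1985 ± 208 TPM in the PV-10 group and 1842 ± 296 TPM in the PBS group and was not called (log2 change in counts 1.01 ± 0.31 (SE), adjusted p = 0.0691). Rpl28, among the 3 large-subunit genes of highest mean TPM, had 1238, 1314 and 1949 CPM in PV-10 tumours 1, 2 and 3, against 1607, 1105 and 995 CPM in PBS tumours 1, 2 and 3, with PV-10 tumour 3 the highest of all 6 (log2 change in counts 0.28 ± 0.32 (SE), adjusted p = 0.573). Its groups overlapped, so that high abundance went with strong change in Rps24 and with none called in Rpl28. Across the 80 genes with a mean of at least 10 TPM, the log2 change and the PBS level had a Spearman rho of -0.03 (a description across genes, which are not independent replicates and share the 6 libraries).

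The genes were also grouped by position in the ribosome, and differences between members of a site were not tested. In the P stalk, which recruits translation factors, Rplp0 and Rpl12 rose while Rplp1 and Rplp2 were not called. Rpl12 had 3900.1, 3189 and 1575 CPM in PV-10 tumours 1, 2 and 3, against 722, 629.6 and 567 CPM in PBS tumours 1, 2 and 3 (log2 change in counts 2.18 ± 0.37 (SE), adjusted p = 0.0443). Rplp0 had 1864, 1709 and 1447 CPM in PV-10 tumours 1, 2 and 3, against 798, 823 and 706 CPM in PBS tumours 1, 2 and 3 (log2 change in counts 1.11 ± 0.26 (SE), adjusted p = 0.048). The acidic protein Rplp1 was at 480.2 ± 45.4 CPM in the PV-10 group and 348 ± 18.9 CPM in the PBS group (log2 change in counts 0.46 ± 0.25 (SE), adjusted p = 0.244) and its partner Rplp2 at 1201 ± 132 CPM in the PV-10 group and 562 ± 172 CPM in the PBS group (log2 change in counts 1.09 ± 0.30 (SE), adjusted p = 0.0593). All 4 had every PV-10 tumour above every PBS tumour in CPM.

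Rpl5 and Rpl11 join the 5S ribosomal RNA and, when free of ribosomes, bind the p53 regulator Mdm2. Rpl5 had 5057, 4231 and 2072 CPM in PV-10 tumours 1, 2 and 3, against 807, 849 and 831 CPM in PBS tumours 1, 2 and 3, with groups far apart (log2 change in counts 2.19 ± 0.36 (SE), adjusted p = 0.0443). Rpl11 had 683, 745 and 502 CPM in PV-10 tumours 1, 2 and 3, against 363, 287 and 282 CPM in PBS tumours 1, 2 and 3, and was not called (log2 change in counts 1.05 ± 0.28 (SE), adjusted p = 0.0565). Among 3 proteins of the peptide exit tunnel, Rpl17 and Rpl39 rose, with log2 changes of 2.43 ± 0.39 and 1.54 ± 0.29 (SE), and Rpl4 did not. Rpl17 was at 2764 ± 1259.9 CPM in the PV-10 group and 512 ± 36.7 CPM in the PBS group (SD, n = 3 each). Of the 3 proteins closest to the peptidyl transferase centre, where peptide bonds are made, 0 were called by edgeR at an adjusted p under 0.05, while 2 were higher at an unadjusted p under 0.05 and 2 were called by DESeq2. Their log2 changes were 0.35 ± 0.26 for Rpl3, 0.62 ± 0.25 for Rpl8 and 0.85 ± 0.26 for Rpl10, and all 3 had PV-10 tumours above PBS tumours in CPM.

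On the small subunit, Rps3 at the mRNA entry rose (log2 change in counts 1.53 ± 0.31 (SE), adjusted p = 0.0443) while Rps2 at the same site did not. The mRNA exit proteins Rpsa, Rps26 and Rps28 had log2 changes of 0.49, 0.51 and 1.01, and edgeR called 0 of 3 (1 at an unadjusted p under 0.05, and 2 called by DESeq2). Rpsa, also known as a laminin receptor, was at 731 ± 24.8 CPM in the PV-10 group and 520.5 ± 22.3 CPM in the PBS group, a difference of 0.49 ± 0.25 (SE) in log2. The decoding-centre proteins Rps15 and Rps23 both rose, by 1.20 ± 0.28 and 1.48 ± 0.36 (SE) in log2, at adjusted p of 0.0463 and 0.0493. Rps6, the substrate of S6 kinase downstream of mTOR, had 1382, 1656 and 1135 CPM in PV-10 tumours 1, 2 and 3, against 764, 606 and 556 CPM in PBS tumours 1, 2 and 3 and lay just outside the threshold (log2 change in counts 1.12 ± 0.29 (SE), adjusted p = 0.0523). Rps27a, made as a fusion of ubiquitin and a ribosomal protein, had 311, 332 and 173 CPM in PV-10 tumours 1, 2 and 3, against 82.4, 72.5 and 71.2 CPM in PBS tumours 1, 2 and 3 and rose (log2 change in counts 1.85 ± 0.31 (SE), adjusted p = 0.0443).

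Paralogs of core ribosomal proteins ranged from the largest change of the family to silence. Rps27l, a close relative of Rps27 known in human cells as a target of p53, showed the largest log2 change of the family. Rps27l had 711, 449.6 and 118 CPM in PV-10 tumours 1, 2 and 3, against 71.3, 42.1 and 61.5 CPM in PBS tumours 1, 2 and 3 (log2 change in counts 2.87 ± 0.58 (SE), adjusted p = 0.0443). Its parent Rps27 had 507, 454 and 372 CPM in PV-10 tumours 1, 2 and 3, against 174, 159.9 and 129 CPM in PBS tumours 1, 2 and 3 (log2 change in counts 1.52 ± 0.27 (SE), adjusted p = 0.0443). Both rose with groups fully apart. Per length, Rps27l was at 551 ± 324 TPM in the PV-10 group and 147 ± 16.4 TPM in the PBS group, below Rps27 at 1175 ± 60.9 TPM in the PV-10 group and 784 ± 165 TPM in the PBS group, so the paralog stayed the lesser transcript on average. In PV-10 tumour 1 it reached 855 TPM, beside 1157 TPM for Rps27 in that tumour. The difference between the 2 changes was not tested.

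The coding sequences of the pair are shown to let a reader judge how well reads can be assigned between them. Capitals mark the positions at which the other sequence has another base. They are the Gencode M21 coding sequences, read 5′ to 3′ from mm10, of genes at chr9:66946086-66949516 (plus strand) and chr3:90212522-90213651 (minus strand).
Rps27l: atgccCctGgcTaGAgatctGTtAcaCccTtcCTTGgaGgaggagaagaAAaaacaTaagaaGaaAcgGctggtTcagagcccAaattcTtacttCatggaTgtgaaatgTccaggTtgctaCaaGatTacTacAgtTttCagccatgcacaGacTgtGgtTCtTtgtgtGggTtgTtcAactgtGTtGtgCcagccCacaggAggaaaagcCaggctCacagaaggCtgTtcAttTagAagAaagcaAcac
Rps27: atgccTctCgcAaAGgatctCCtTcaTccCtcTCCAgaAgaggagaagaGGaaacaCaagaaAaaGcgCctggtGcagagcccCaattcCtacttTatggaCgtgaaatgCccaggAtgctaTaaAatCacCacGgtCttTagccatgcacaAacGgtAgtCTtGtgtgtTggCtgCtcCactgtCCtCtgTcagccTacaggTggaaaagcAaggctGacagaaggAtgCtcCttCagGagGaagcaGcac
Both have 252 coding bases, 60 of which differ (76.2% identity), and the longest stretch without a difference is 11 bases. A read of 100 bases therefore spans several differences within the coding part.

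Rpl22l1, the paralog of the RNA-binding Rpl22, had 173, 279.5 and 60.0 CPM in PV-10 tumours 1, 2 and 3, against 39.2, 30.1 and 26.1 CPM in PBS tumours 1, 2 and 3 (log2 change in counts 2.43 ± 0.50 (SE), adjusted p = 0.0443). PV-10 tumour 2 was the highest of the 6 tumours and PV-10 tumour 3 the lowest of its group. Rpl22 had 581.5, 660.5 and 275 CPM in PV-10 tumours 1, 2 and 3, against 183, 144 and 137 CPM in PBS tumours 1, 2 and 3 (log2 change in counts 1.71 ± 0.36 (SE), adjusted p = 0.0443), and the 2 coding sequences are 67.5% identical. Rpl7l1 was low per length, at 14.3 ± 2.64 TPM in the PV-10 group and 13.4 ± 1.52 TPM in the PBS group, and was not called (log2 change in counts 0.94 ± 0.31 (SE), adjusted p = 0.0796), nor was Rpl7, at 197 ± 12.6 TPM in the PV-10 group and 219 ± 53.8 TPM in the PBS group.

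The paralogs of male germ cells and muscle were near or at 0. Rpl39l, a testis paralog of Rpl39, had 2.67, 3.20 and 0.434 CPM in PV-10 tumours 1, 2 and 3, against 0, 0.258 and 0.656 CPM in PBS tumours 1, 2 and 3 (log2 change in counts 2.77 ± 1.50 (SE), adjusted p = 0.245). Its coding sequence is 85.0% identical to that of Rpl39, with an identical stretch of 38 bases, so the assignment of its few reads is uncertain. Rpl3l, the paralog of striated muscle, had 0, 1.62 and 0.605 CPM in PV-10 tumours 1, 2 and 3, against 0.341, 0 and 0.0772 CPM in PBS tumours 1, 2 and 3 (log2 change in counts 2.39 ± 2.26 (SE), adjusted p = 0.5). Rpl10l, another testis paralog, had 0 counts in 5 tumours and 16 counts in PV-10 tumour 2. The skeletal muscle genes Acta1, Ckm, Myh4, Tnnt3 and Mylpf, summed, came to 54.2, 284 and 3.83 CPM in PV-10 tumours 1, 2 and 3, against 14.6, 3.35 and 2.17 CPM in PBS tumours, with Ckm and Myh4 at 0 in at least 1 tumour. The part of muscle in the Rpl3l value was not tested.

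Large- and small-subunit genes differed in parallel. Of large-subunit genes 28 of 50 tested rose and of small-subunit genes 22 of 32, with median log2 changes of 1.297 and 1.372. The summed share of counts was 2.41 times higher in PV-10 tumours for the large and 2.86 times for the small subunit. The ratio of large over small summed counts was 1.37, 1.40 and 1.67 in PV-10 tumours, against 1.63, 1.75 and 1.78 in PBS tumours, and the groups overlapped. In TPM this ratio was 1.20, 1.27 and 1.39 in PV-10 tumours, against 1.40, 1.45 and 1.48 in PBS tumours, with every PV-10 tumour lower. Leaving out the single gene Rps24 brought the TPM ratios to 1.57, 1.60 and 1.62 in PV-10 tumours, against 1.58, 1.64 and 1.64 in PBS tumours, which overlapped. In counts without Rps24 they were 1.804, 1.763 and 1.930 in PV-10 tumours, against 1.83, 1.95 and 1.95 in PBS tumours. The lower ratio in PV-10 tumours was therefore carried mostly by 1 gene, and no difference between subunits was tested.

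Per length, fewer single genes were called. With limma on log2(TPM + 1), 21 of the 82 genes rose and 1, Rps2, fell, while over all genes 1.14% were called higher and 17.2% lower. All 21 were also called from counts. The median log2 difference was 0.49 (large subunit 0.44, small subunit 0.52), against -0.21 over all genes tested, and 64 of 82 were positive. PV-10 tumours all lay above PBS tumours in 47 genes and below in 1, against 9.58% and 31% of all genes. The highest TPM differences were in Rpl35 (1.77), Rps27l (1.69), Rps12 (1.66) and Rps24 (1.55). In each gene the TPM difference was lower than the count difference, and the rank of the genes was nearly the same (Spearman rho 0.99 over 80 genes, both from the same reads). Genes positive in counts and negative in TPM included Rpl28 (-0.48), Rpl3 (-0.47), Rplp1 (-0.40) and Rpsa (-0.30), none of which was called on either scale.

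**Figure D4:**
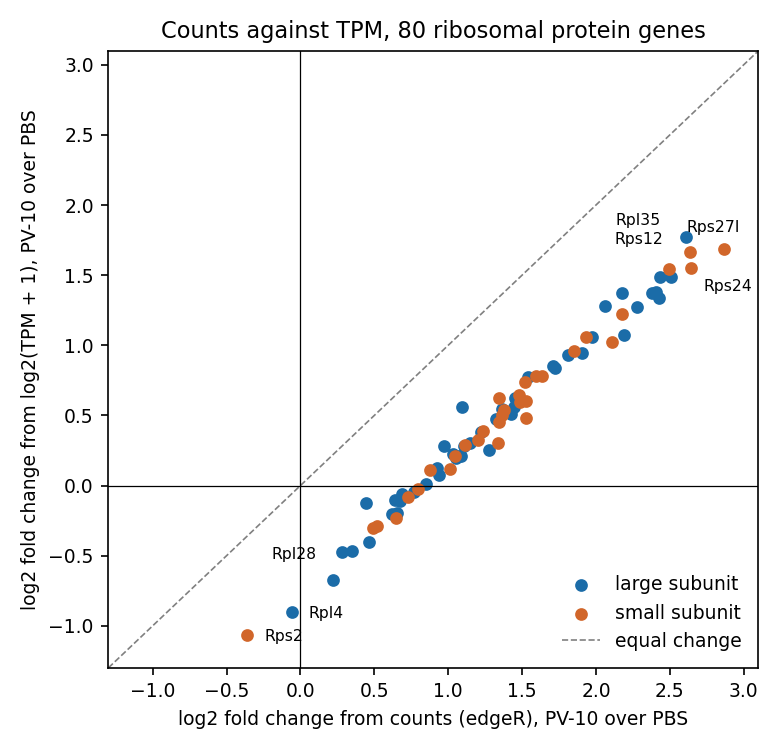
log2 change from counts (horizontal, edgeR) against log2 difference of log2(TPM + 1) (vertical), PV-10 over PBS, for 80 ribosomal protein genes with a mean of at least 10 TPM. Blue is the large and orange the small subunit; all points lie below the dashed line of equal change, in nearly the same order on both axes.

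Gene length differed with the groups too. The median effective length of the ribosomal protein genes was 604 bases, against 2762 for all protein-coding genes tested. Each gene's log2 CPM was first taken relative to its mean over all tumours. The slope of this difference over all genes, per doubling of length, was -0.103, -0.047 and -0.091 in PV-10 tumours 1, 2 and 3. In PBS tumours 1, 2 and 3 it was 0.072, 0.115 and 0.055. These slopes balance across the tumours by construction, so slopes of both signs are forced. They show how tumours differed from each other, not the absolute dependence of a library on length. When each library's own trend with length was removed before the fit, the median log2 change of the ribosomal protein genes was 1.00 (78 of 82 positive), against 0.28 over all genes. edgeR then called 0 of them, with 58 at an unadjusted p under 0.05 and a lowest adjusted p of 0.0792, and 0 of all genes, with 5906 of these at an unadjusted p under 0.05. With both length and GC content removed the median was 1.07 and 0 were called, with 63 at an unadjusted p under 0.05. Of all genes, 2 were then called and 5715 had an unadjusted p under 0.05, in either direction. The cause of the length trend was not tested.

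Within the family, change went with base composition and coding length. The Spearman rho of log2 change with GC content of the coding sequence was -0.38 (Pearson r -0.39), and with coding length -0.30 (Pearson r -0.39), over 80 genes that share the same 6 libraries. The 27 genes of lowest GC content, from 39.9% to 50.6%, had a median log2 change of 1.48 and 19 rose. The 27 of highest GC content, from 54.6% to 61.6%, had a median of 1.09 and 13 rose. Rpl36, with the highest GC content of all 80, rose, and so did Rpl35, at 54.7%. The 27 shortest coding sequences, of 75 to 399 bases, had a median of 1.52, and the 27 longest, of 576 to 1257 bases, a median of 1.14. With each library's length trend removed these medians were 1.16 and 0.96, and the Spearman rho was -0.20 with coding length and -0.41 with GC content. Genes with an annotated small nucleolar RNA within their bounds on the same strand (30) and those without (50) had medians of 1.34 and 1.38.

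**Figure D5:**
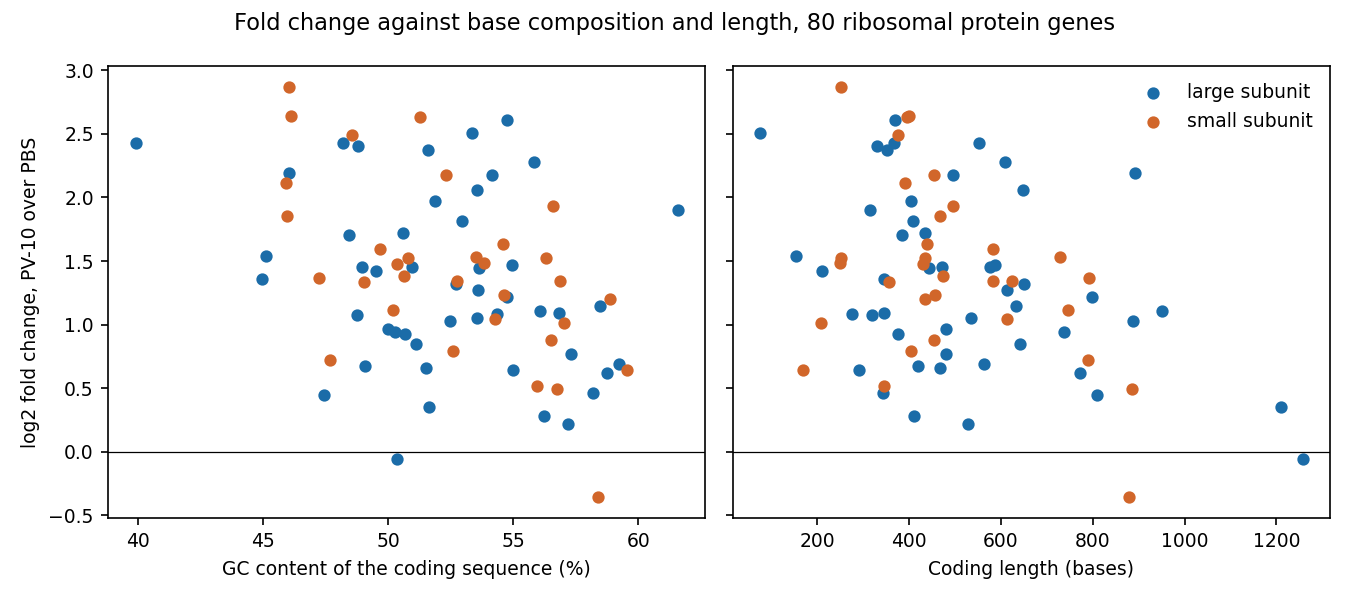
edgeR log2 change, PV-10 over PBS, of 80 ribosomal protein genes against GC content of the coding sequence in percent (left) and coding length in bases (right). Blue is the large and orange the small subunit; change tends to be lower at high GC content and in the longest genes, with wide scatter (Spearman rho -0.38 and -0.30).

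Ribosomal components and relatives that the symbol rule leaves out had positive log2 changes in all 4 genes looked at, and 1 was called. Fau, whose product is cleaved to a small-subunit protein, was not called (log2 change in counts 0.93 ± 0.29 (SE), adjusted p = 0.0739), nor was Rack1, a scaffold on the small subunit (log2 change in counts 0.78 ± 0.25 (SE), adjusted p = 0.079). Rpl36al, a relative of the X-linked Rpl36a, rose (log2 change in counts 1.34 ± 0.31 (SE), adjusted p = 0.0457), and Rps27rt lay just outside the threshold (log2 change in counts 1.54 ± 0.39 (SE), adjusted p = 0.0521).

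Genes of neighbouring pathways were compared as lists. Over all genes, edgeR called 3.17% higher and 1.92% lower, and DESeq2 called 15.7% and 10.2%. At an unadjusted p under 0.05 in edgeR there were 6627 of 22056 genes, in either direction. Of 78 mitochondrial ribosomal protein genes, which serve translation inside mitochondria, 23 rose and 0 fell, with a median log2 change of 0.79 (edgeR, with 50 higher and 0 lower at an unadjusted p under 0.05, and 46 and 0 by DESeq2). Mrps21, Mrpl14 and Mrpl50 rose by 1.71, 1.73 and 1.75. On the TPM scale their median was 0.04 and 1 was called higher, beside a median of -0.21 and 1.14% called higher over all genes. Of 19 other genes with TOP mRNAs, mostly translation factors, 4 rose and 0 fell in counts (median 0.78, with 12 higher and 0 lower at an unadjusted p under 0.05, and 13 and 0 by DESeq2). Among the 4 were Eif3e (1.64), Eef1b2 (1.54) and Naca (1.34). In counts 13 of the 19 had a positive log2 change. The lowest were Eef2 (-0.88), Pabpc1 (-0.88) and Eif4b (-0.85), which were not called in counts but were called lower in TPM. In TPM, by limma, 4 of the 19 were called lower and 0 higher, beside the 17.2% and 1.14% of all genes given above.

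Among genes that build ribosomes, calls went in both directions in counts, and in TPM more were called lower than higher. Of all genes tested, 3.17% were called higher and 1.92% lower in counts by edgeR, and 1.14% and 17.2% in TPM by limma. DESeq2 called 15.7% and 10.2%, and 6627 of 22056 had an unadjusted p under 0.05 in edgeR, in either direction. Of 25 ribosome biogenesis genes 2 rose and 1 fell in counts, with a median log2 change of -0.31, and in TPM 0 were called higher and 7 lower, at a median of -0.96. Nop10, of the RNA pseudouridylation complex, rose by 1.95 ± 0.42, Nip7 rose by 1.49 ± 0.34, and Ncl, which encodes the nucleolar protein nucleolin, fell (log2 change -1.54 ± 0.38, SE). Ncl had 206, 269.9 and 524 CPM in PV-10 tumours 1, 2 and 3, against 1082, 844 and 984 CPM in PBS tumours 1, 2 and 3. Of 10 genes for RNA polymerase I and its factors, which transcribe ribosomal RNA, 2 rose (Polr1d, 1.61, and Taf1d, 2.34) and 1 fell, the catalytic subunit Polr1a (-1.70), around a median of -0.02, while in TPM 1 was called higher and 3 lower. Of 10 regulators of TOP mRNAs 0 rose and 1 fell, at a median of -0.97 (edgeR, with 0 higher and 7 lower at an unadjusted p under 0.05, and 0 and 5 by DESeq2), and in TPM 7 were called lower. The fallen gene was Mtor, the kinase itself, with 22.2, 18.6 and 31.5 CPM in PV-10 tumours 1, 2 and 3, against 47.7, 58.5 and 59.2 CPM in PBS tumours 1, 2 and 3 (log2 change in counts -1.19 ± 0.28 (SE), adjusted p = 0.0477).

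The tissue label was checked with cell type markers. Keratins Krt8 and Krt18 were at 157 to 270 and 300.3 to 354 CPM in PV-10 tumours, against 238 to 394 and 235 to 378 CPM in PBS tumours. Epcam was at 1.31 CPM at most, with 0 counts in PBS tumour 1. Of the same epithelial list, Cdh1 was lower in every PV-10 tumour (3.06, 4.05 and 5.62 CPM, against 8.75, 8.78 and 10.3 CPM in PBS tumours). Cldn4, near the floor, was higher in every PV-10 tumour (0.757, 2.55 and 0.228 CPM, against 0.193, 0 and 0 CPM), and the rest of the list overlapped. The airway genes Foxj1, Scgb1a1, Scgb3a2 and Nkx2-1 each had 0 counts in at least 1 tumour. Sox2, the remaining gene of the airway list, was detected in all 6 tumours, at 4.25, 18.6 and 24.4 CPM in PV-10 tumours, against 21.9, 31.5 and 26.8 CPM in PBS tumours. Summed leukocyte markers (7 genes) were 288, 262 and 406 CPM in PV-10 tumours, against 585, 413 and 407 CPM in PBS tumours. Macrophage markers (5 genes) were 650, 547 and 731 CPM in PV-10 tumours, against 1229, 750.2 and 787 CPM in PBS tumours. The 4 erythroid genes summed to 5.88 to 9.60 CPM in PV-10 tumours, against 2.15 to 5.50 CPM in PBS tumours, without overlap and with 3 of the 4 at 0 in some tumours. The epithelial, airway, T cell, endothelial, fibroblast and muscle sums overlapped between the groups. Of the 45 different marker genes 42 were tested and edgeR called 0 at an adjusted p under 0.05, with 6 higher and 5 lower at an unadjusted p under 0.05 and 4 higher and 3 lower by DESeq2. Over all genes, 6627 of 22056 had an unadjusted p under 0.05 in edgeR, in either direction, and DESeq2 called 15.7% higher and 10.2% lower. The part of cell composition in the levels of the ribosomal protein genes was not tested.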

How the data were processed

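Total RNA of 3 PV-10 and 3 PBS tumours was sequenced as strand-specific libraries from 100 ng RNA. Per the submitters' processing notes, adapters were handled with BBMerge 37.02 and cutadapt 1.8.1, and reads were aligned to mm10 with STAR 2.7.7a. RSEM 1.3.0 with Gencode M21 then gave gene values, and the authors tested genes with DESeq2. The deposited estimated counts are whole numbers, not normalized, so that no rounding was needed. The deposited TPM values are scaled by effective length to an equal total per tumour, which removes depth. Because RSEM divides ambiguous reads among like genes, the values of paralogs and pseudogenes carry extra doubt.

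Differences were tested with edgeR 4.0.16 (R 4.3.3; quasi-likelihood F test, robust, TMM, default expression filter) on all 6 tumours, with Benjamini-Hochberg adjustment over 22056 genes and a threshold of 0.05. TPM was tested with limma 3.58.1 on log2(TPM + 1); such log2 differences understate changes of low genes. Standard errors were the log2 change over the root of the F statistic. Other tools and settings were DESeq2 1.42.0, other scalings and filters, a length trend removed by a spline, the replicate block and omission of each tumour.

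On simulated counts for PV-10 against PBS over 22056 genes, 100 genes were given a log2 change of 2 and 100 one of 4. Of those that passed the expression filter, the test found 59.6% and 83%, with 5 false calls.

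The members and the gene lists were chosen with earlier results of these data known. Named genes were the 3 most abundant members of each subunit, the 4 with the largest change in each, the 3 with the lowest, divergent paralogs with their parents, untested members, the 3 with the largest gap between TPM and count changes, those of fixed functional sites, and up to 3 called genes per list. Rpl6, Rpl23a, Rps27rt, Rpl36al, Eef2, Pabpc1, Eif4b, Krt8, Krt18, Cdh1, Cldn4 and the small nucleolar RNAs named below were named after their values were seen. Some genes that the rule names are not reported here. Counting intervals are not given because tumours, not reads, set the error.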

Additional observations from a re-analysis of the deposited data

How the results depend on the processing

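Settings were compared by calls and by median log2 change, PV-10 over PBS. Against 50 ribosomal protein genes called higher by edgeR, limma on log2(TPM + 1) and log2(TPM + 0.1) called 21 and 23, each with 1 called lower, and removal of the length trend, or of length and GC trends, called 0. DESeq2, DESeq2 size factors, library size, no filter, a mean count of at least 50 and protein-coding genes alone called 74, 61, 52, 48, 67 and 65. All genes called, 1122 in the main test, became 5720, 2537, 2441, 4664, 2705 and 2779 under those 6, 4037 and 3998 under the TPM settings, 0 with the length trend removed and 2 with length and GC removed. The median of all genes' log2 changes was 0.30 in the main test, 0.43 under DESeq2, 0.21 with library size, 0.06 at a mean count of at least 50 and 1.63 with no filter. Without the filter it lay above the large- and small-subunit medians of 1.22 and 1.29, with 39195 genes fitted. Large- and small-subunit medians were 0.44 and 0.52 with TPM + 1, 0.49 and 0.52 with TPM + 0.1, 0.98 and 1.03 without the length trend, and 1.07 and 1.09 without length and GC trends. The summed log2 ratio was 1.36 in counts and 0.66 in TPM. Removal of length and GC trends, and protein-coding TPM as a total (1.09), were chosen after seeing the data.

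Leaving out 1 tumour gave 0 to 69 members called higher, 0 to 1 lower and 1 to 11399 genes in all. The summed ratio ran from 1.21 to 1.58, the large over small ratio from -0.31 to -0.16. With the replicate number as a block, 51 members and 2872 genes were called, but tumours of equal number were not paired by their deviations (correlations -0.05, 0.07 and 0.07). Of 900 values of named genes under alternatives, 558 kept direction and side of the threshold. The sign turned for Rpl4 (0.034 with DESeq2 and its size factors, 0.084 at a mean count of at least 50, 0.060 with protein-coding genes alone; -0.34 to 0.071 over the omissions, above 0 without PV-10 tumour 1 or 2). With TPM + 1 it turned for Rpl28 (-0.48), Rpl3 (-0.47), Rpl7 (-0.13), Rps4x (-0.084), Rplp1 (-0.40), Rpl8 (-0.20), Rpsa (-0.30) and Rps26 (-0.29), and with TPM + 0.1 likewise. Without the length trend it turned for Rpl28 (-0.044). The cause was not tested. Depth limits the near-silent Rpl3l, Rpl10l and Rpl39l, each with 0 counts in at least 1 tumour and at most 155 in any. Protein-coding genes as total cancel in the large over small ratio, so that setting gave no separate value.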

Other observations

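Processed pseudogenes of ribosomal protein genes, which resemble their parents, held few of the reads. By name, 294 pseudogenes were matched to 60 of the 83 genes, and in the median gene they held 0.292% of the reads of gene and pseudogenes together. The highest value, 26.6%, was that of Rps2, the gene of lowest log2 change. Their summed share of all counts was 0.138%, 0.139% and 0.0868% in PV-10 tumours 1, 2 and 3, against 0.0680%, 0.0509% and 0.0481% in PBS tumours. Adding them to their parents moved the log2 ratio by -0.01 to 0.09, and by more than 0.1 in 0 genes. The largest move was in Rps2, from -0.36 to -0.27.

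Small nucleolar RNAs guide the modification of ribosomal RNA, and 58 of them lie in 30 of the ribosomal protein genes. Their summed level was 70.9, 112 and 224 CPM in PV-10 tumours 1, 2 and 3, against 36.7, 71.2 and 61.9 CPM in PBS tumours 1, 2 and 3. PV-10 tumour 3 was the highest of the 6 tumours for these small RNAs, whereas it had the lowest ribosomal protein mRNA share of the PV-10 group, and PV-10 tumour 1 did not exceed PBS tumour 2.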
